A study of Mus musculus with 12 samples.

Results

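The genes described here are the interleukin-6 (IL-6) family of mouse mesenchymal stem cells (MSCs). They comprise 4 cytokines (Il6, Il11, Lif and Clcf1), 5 receptor subunits (Il6st, Il6ra, Il11ra1, Lifr and Osmr) and the feedback inhibitor Socs3. They were chosen by gene symbol, and all 10 were found among the 55401 genes of the table. The MSCs were bone marrow cells of C57BL/6 mice bought from a supplier, and polyadenylated RNA was sequenced from 4 groups of 3 libraries each. One group was left untreated, and a second received TGF-β1 at 5 ng/mL, a cytokine that turns MSCs towards myofibroblasts. The other groups received the same TGF-β1 together with the culture supernatant of sorted myeloid-derived suppressor cells (MDSCs), either of the monocytic type (M-MDSC, Ly6C high) or of the granulocytic type (G-MDSC, Ly6G+). The study asked how these supernatants act on the myofibroblastic differentiation that TGF-β1 induces.

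The MDSCs had been raised from bone marrow cells with GM-CSF and IL-6 before sorting, and no library was made from MSCs given TGF-β1 with medium that had held no MDSCs. Effects of the secreted products of MDSCs and of that medium cannot be told apart in these data. Nothing in the labels or methods says that the 3 libraries of a group came from separate donors or cultures, so p-values measure the spread between these libraries, which may be technical.

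Cytokines of the IL-6 family share gp130, the signalling receptor subunit encoded by Il6st. Each ligand is caught by its own receptor subunit, IL-6 by the product of Il6ra, IL-11 by that of Il11ra1 and leukaemia inhibitory factor (Lif) by that of Lifr, and Osmr encodes the subunit that pairs with gp130 to bind oncostatin M. The receptors signal through Janus kinases to STAT3, which induces Socs3, which binds gp130 and damps the signal. In stromal and fibroblast cells IL-11 is known as a product of TGF-β signalling, and IL-6 and Lif as products of inflammatory stimulation.

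In the coordinates of the table (GRCm38, with the strand in parentheses), the cytokine genes lie as follows, Il6 at chr5:30013114-30019981 (+), Il11 at chr7:4772373-4782857 (-), Lif at chr11:4257557-4272514 (+) and Clcf1 at chr19:4214238-4223490 (+). The receptor genes are Il6st at chr13:112464070-112510086 (+), Il6ra at chr3:89864059-89913196 (-), Il11ra1 at chr4:41699989-41769474 (+), Lifr at chr15:7090614-7197489 (+) and Osmr at chr15:6813577-6874969 (-), and Socs3 lies at chr11:117966079-117970047 (-). Lifr and Osmr are thus on the same chromosome, as are Lif and Socs3.

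Il6, Il11, Lif and Socs3 are the 4 members whose promoter windows held a searched motif. Their sequences are therefore shown, as RefSeq gives them on GRCm38.p6, for the 250 bases before the annotated start. The windows were chr5:30012864-30013113 (+ strand) for Il6, chr7:4778142-4778391 (- strand) for the second RefSeq start of Il11, chr11:4257318-4257556 (+ strand) for Lif and chr11:117969367-117969616 (- strand) for Socs3. The last 11 bases of the Lif window lie in an annotated untranslated region and are left out. The Il11 window lies in an intron of the longer Il11 transcripts, and 77 bases of the Socs3 window lie in an exon of a noncoding Socs3 transcript. Each sequence runs 5′ to 3′ towards the start site, and the capitals mark the motif matches.
Il6: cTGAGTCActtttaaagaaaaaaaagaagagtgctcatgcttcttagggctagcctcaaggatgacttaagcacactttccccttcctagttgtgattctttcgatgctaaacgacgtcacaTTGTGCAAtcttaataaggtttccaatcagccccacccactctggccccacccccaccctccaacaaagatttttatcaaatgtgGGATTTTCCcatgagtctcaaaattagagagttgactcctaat
Il11: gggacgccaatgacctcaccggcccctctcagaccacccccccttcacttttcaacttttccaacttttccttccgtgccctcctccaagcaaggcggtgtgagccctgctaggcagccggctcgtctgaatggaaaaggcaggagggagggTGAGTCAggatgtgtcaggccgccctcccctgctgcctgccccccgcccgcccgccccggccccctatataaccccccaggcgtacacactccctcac
Lif: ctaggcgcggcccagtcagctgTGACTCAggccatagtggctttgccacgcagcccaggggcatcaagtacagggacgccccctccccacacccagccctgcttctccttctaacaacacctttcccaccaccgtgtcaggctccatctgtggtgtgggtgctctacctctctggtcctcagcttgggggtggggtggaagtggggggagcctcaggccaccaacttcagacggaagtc
Socs3: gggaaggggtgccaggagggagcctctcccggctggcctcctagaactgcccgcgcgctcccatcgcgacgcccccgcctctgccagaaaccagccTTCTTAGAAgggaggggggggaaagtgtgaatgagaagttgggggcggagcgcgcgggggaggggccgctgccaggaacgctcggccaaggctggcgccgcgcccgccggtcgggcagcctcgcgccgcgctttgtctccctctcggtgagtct

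Both strands were searched for 5 motifs, and no matches overlapped in these windows. The motifs were chosen with the promoter sequences in view. The AP-1 motif TGANTCA was matched in Il6 as TGAGTCA, 249 bases before the start, in Il11 as TGAGTCA, 98 bases before it, and in Lif as TGACTCA, 228 bases before it. The Il6 window also held the C/EBP motif TTGNGCAA (as TTGTGCAA, 128 bases before the start) and the NF-kB motif GGANTTTCC (as GGATTTTCC, 43 bases before it). Socs3 held the STAT motif TTCNNNGAA, as TTCTTAGAA, 154 bases before the start. Among 32851 mouse promoter windows of the same length, AP-1 was matched in 6.75%, C/EBP in 2.61%, NF-kB in 1.07% and STAT in 7.02%. The CRE motif TGACGTCA, matched in 1.55% of all windows, was in no window of a member. Windows were given for 9 of the 10 members, 12 in all, and the windows of Il6st, Il6ra, Il11ra1, Lifr and Osmr and the first window of Il11 held none of the 5 motifs. A match is a description of the letters and not evidence that a factor binds.

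The libraries held from 73977669 to 84565450 counts. Levels are given as FPKM, the fragments per kilobase of transcript scaled to the size of the library, so that genes can be compared per length. Differences are log2 fold changes from edgeR's quasi-likelihood test on the counts, with the standard error (SE) and a Benjamini-Hochberg adjusted p over the 12016 genes that reached an FPKM of 1 in 3 or more libraries. A gene was called changed at an adjusted p under 0.05. Of the 10 members, 9 passed that filter, and Lifr did not. The MSC markers Itgb1, Cd44 and Ly6a were expressed in every library, whereas Kit and Pecam1, which the study used as negative markers, had at most 0.218 FPKM. Ly6a, which encodes Sca-1, had 241.0 to 251.1 FPKM in untreated MSCs, 12.99 to 18.75 with TGF-β1 (log2 difference -3.86, edgeR adjusted p = 5.15e-09), and 82.56 to 102.8 and 63.28 to 69.15 with M-MDSC and G-MDSC supernatant (adjusted p = 2.38e-07 and 1.54e-06 for differences of 2.49 and 2.02 from TGF-β1 alone). Treatment with TGF-β1 raised its known target Ccn2 (log2 difference 2.53) and the myofibroblast gene Acta2 (0.53).

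Across the 12 libraries Il11 reached the highest FPKM of the members and Lifr had the lowest. In untreated MSCs the order by mean FPKM was Clcf1, Il6st, Osmr, Socs3, Il11ra1, Il11, Il6ra, Lif, Il6 and Lifr, with means from 13.84 down to 0.367. The libraries of Clcf1 covered the range of both Il6st and Osmr, and the neighbours Il11ra1 and Il11, and Il6ra and Lif, overlapped, whereas the other neighbours did not. With TGF-β1 the mean of Il11, 34.27 FPKM, stood above that of every other member. The plot of FPKM by library shows the levels of all 10 genes.

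**Figure D1:**
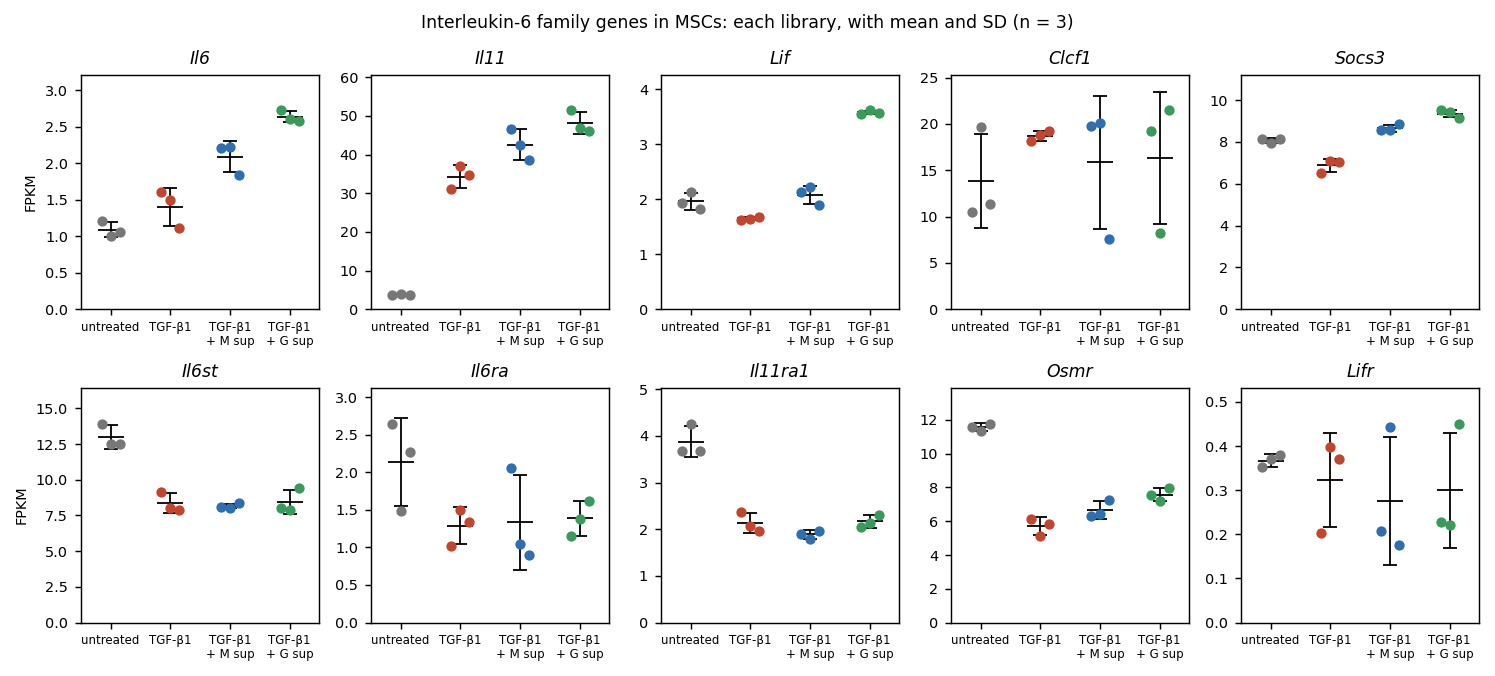
FPKM of the 10 members in each library (points), with the group mean and SD (n = 3, horizontal lines) and a separate linear axis from 0 for each gene. M sup and G sup stand for M-MDSC and G-MDSC supernatant. Il11 goes from 3.58 to 4.06 FPKM in untreated MSCs to between 31.06 and 51.43 in all other libraries, Lif is highest in the 3 G-MDSC libraries, and Il6st, Il11ra1 and Osmr are highest in the untreated ones.

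TGF-β1 alone raised Il11 and lowered the shared receptor subunit and 2 of its partners. Of the 9 members tested, 6 were called (2 higher and 4 lower), against 34% of all genes tested (16.1% higher and 17.9% lower). The study's rule, a fold over 2 in either direction with an unadjusted p under 0.05, called 1 member (Il11) and 6.74% of all genes. Il11 rose 9.46-fold, and Osmr, Il11ra1 and Il6st fell to 0.514, 0.574 and 0.671 of the untreated level. The median log2 difference of the tested members was -0.19, and that of all genes tested was 0.00048.

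Il11 encodes IL-11, the cytokine of the family best known from TGF-β-treated fibroblasts. It had 3.58, 4.06 and 3.66 FPKM in untreated replicates 1, 2 and 3, and 31.06, 37.09 and 34.67 FPKM with TGF-β1. The groups were far apart, and the log2 difference was 3.24 (SE 0.097, edgeR adjusted p = 2.61e-09). These are bulk samples, in which a change in the number of cells that express a gene and a change in the RNA per cell cannot be told apart.

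Il6 encodes IL-6, an inflammatory cytokine. It had 1.21, 1.00 and 1.06 FPKM in untreated MSCs and 1.61, 1.49 and 1.11 FPKM with TGF-β1. The groups overlapped, and its log2 difference of 0.42 (SE 0.147) was called narrowly by edgeR, with an adjusted p of 0.0475. The call was lost in 15 of 22 alternative analyses.

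Lif encodes leukaemia inhibitory factor. It had 1.92, 2.14 and 1.82 FPKM in untreated MSCs and 1.63, 1.64 and 1.68 FPKM with TGF-β1. The TGF-β1 libraries lay below all untreated ones, but the log2 difference of -0.19 was not called (edgeR adjusted p = 0.104). Of the 22 alternatives, 1 called it lower, limma on log2(FPKM + 0.1) (-0.23, limma adjusted p = 0.0463).

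Clcf1 encodes cardiotrophin-like cytokine factor 1, a ligand of the family. Its libraries lay at 2 levels that did not follow the groups. It had 10.47, 19.67 and 11.37 FPKM in untreated MSCs, 18.15, 18.79 and 19.26 with TGF-β1, 19.82, 20.12 and 7.58 with M-MDSC supernatant, and 19.26, 8.24 and 21.47 with G-MDSC supernatant. Clcf1 was called in no comparison, and its interval of the log2 difference between TGF-β1 and untreated MSCs, -0.43 to 1.42, leaves a change of either sign. Of 1698 stretches of 150 bases in its transcript, 162 (9.54%) also occur in the gene AC109138.7, so its counts are uncertain. Its annotated span overlaps Gm45928 on the same strand, which had at most 45 counts in any library against 2506 to 7351 for Clcf1.

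Il6st, the gene of gp130, had 13.93, 12.49 and 12.52 FPKM in untreated MSCs and 9.16, 8.04 and 7.91 FPKM with TGF-β1. All 3 treated libraries lay below the untreated ones, with a log2 difference of -0.57 (SE 0.080, edgeR adjusted p = 0.000228). Osmr, the subunit for oncostatin M, had 11.58, 11.32 and 11.78 FPKM in untreated MSCs and 6.14, 5.13 and 5.87 with TGF-β1. The decrease of Osmr was the deepest among the receptor genes, at -0.96 on the log2 scale (SE 0.074, edgeR adjusted p = 2.56e-06).

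Il11ra1, which encodes the binding subunit for IL-11, had 3.69, 4.26 and 3.68 FPKM in untreated MSCs and 2.36, 2.08 and 1.96 FPKM with TGF-β1. Thus the ligand gene Il11 and the gene of its receptor moved in opposite directions, with a log2 difference of -0.80 for Il11ra1 (SE 0.093, edgeR adjusted p = 6.03e-05). Of 1860 stretches of 150 bases in its transcript, 394 (21.2%) also occur in Il11ra2 or Gm13305, so its counts are uncertain. Its annotated span also overlaps Galt on the same strand, and Galt was at 5.84 to 6.69 FPKM in untreated MSCs and at 3.85 to 4.13 with TGF-β1.

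Il6ra, the binding subunit for IL-6, had 2.65, 1.49 and 2.28 FPKM in untreated MSCs and 1.02, 1.5 and 1.34 with TGF-β1. The groups overlapped, and the log2 difference of -0.67 was not called (edgeR adjusted p = 0.131), although it was (adjusted p = 0.0435) when M-MDSC replicate 1, which enters only the estimate of the spread, was left out. Of 8490 stretches of 150 bases in its transcript, 93 (1.1%) also occur in the antisense gene Gm42809, which had 14 to 30 counts. Lifr, the receptor subunit for Lif, was at or below 0.451 FPKM in every library, with 166 to 437 counts, and lay at 0.352 to 0.379 FPKM in untreated MSCs and 0.202 to 0.397 with TGF-β1. Without the filter, edgeR did not call Lifr in any of the 6 comparisons (adjusted p from 0.620 to 1.0).

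Socs3, the feedback inhibitor, had 8.12, 7.96 and 8.13 FPKM in untreated MSCs and 6.53, 7.10 and 7.04 with TGF-β1. The groups did not overlap, and Socs3 fell by 0.17 on the log2 scale (SE 0.051, edgeR adjusted p = 0.0238). That call was lost in 6 of 22 alternatives, 2 of which left out a library (untreated replicate 3, adjusted p = 0.0639, and TGF-β1 replicate 1, adjusted p = 0.0853).

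**Figure D2:**
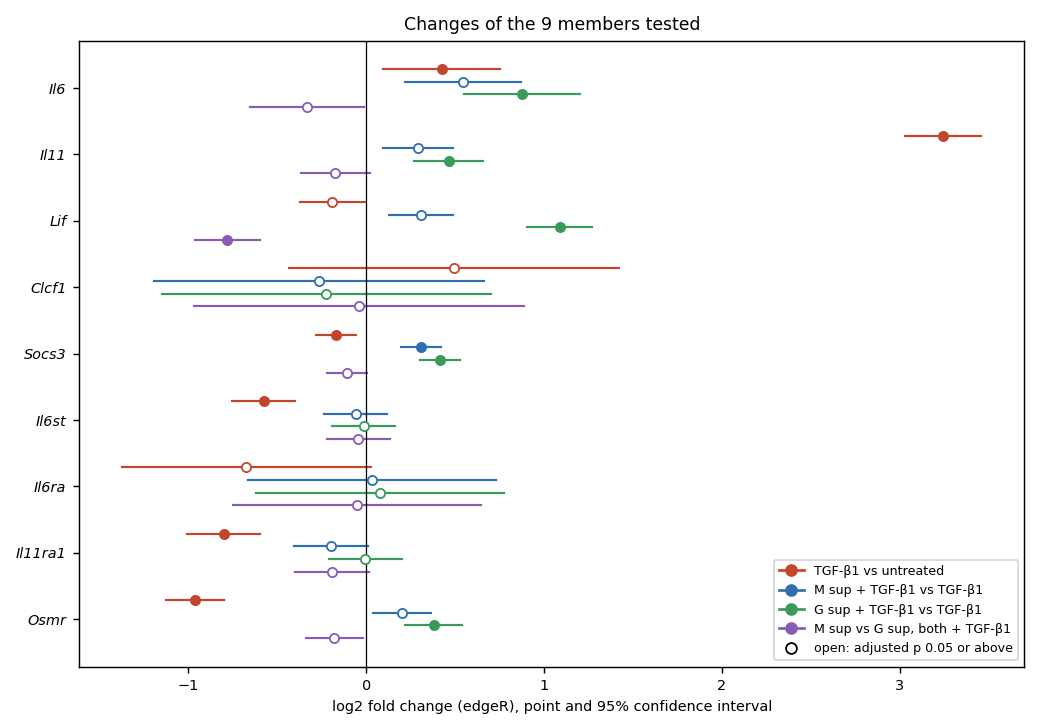
Log2 fold change of the 9 members tested (points) with the 95% confidence interval (lines) in 4 comparisons, from edgeR on the counts. Filled points have an adjusted p under 0.05. Il11 with TGF-β1 lies far to the right of all other points at 3.24, the receptor genes Il6st, Il11ra1 and Osmr lie left of 0 with TGF-β1, and Lif lies at 1.09 with G-MDSC supernatant.

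G-MDSC supernatant raised 3 of the 4 cytokine genes above their level with TGF-β1 alone. Of the 9 members, 5 were called and all were higher (Lif, Il6, Il11, Socs3 and Osmr), against 5.56% of all genes called and 3.1% called higher. By the study's rule 1 member (Lif) and 2.17% of all genes were called. Lif rose 2.13-fold, Il6 1.84-fold and Il11 1.38-fold. The median log2 difference of the members was 0.38, and that of all genes was -0.014.

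Lif had 3.55, 3.61 and 3.57 FPKM with G-MDSC supernatant, where TGF-β1 alone gave 1.63, 1.64 and 1.68. The replicates of each group lay close together and the groups were far apart, with a log2 difference of 1.09 (SE 0.082, edgeR adjusted p = 1.33e-05). Lif also stood above its untreated level of 1.82 to 2.14 FPKM, by 0.90 on the log2 scale (adjusted p = 1.01e-05).

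Il6 had 2.72, 2.61 and 2.58 FPKM with G-MDSC supernatant. All 3 libraries lay above the TGF-β1 ones, with a log2 difference of 0.88 (SE 0.147, edgeR adjusted p = 0.00483). Against untreated MSCs Il6 was higher by 1.301 (adjusted p = 5.45e-05), with no overlap.

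Il11 had 51.43, 46.86 and 46.06 FPKM. It lay above the highest TGF-β1 library in all 3, with a log2 difference of 0.46 (SE 0.088, edgeR adjusted p = 0.0108), so that the supernatant added to the rise that TGF-β1 gave. Without G-MDSC replicate 1 the difference was 0.41 and was no longer called (adjusted p = 0.0508).

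Socs3 had 9.51, 9.41 and 9.15 FPKM, above both the TGF-β1 libraries and the untreated ones. Its log2 difference was 0.42 from TGF-β1 alone (SE 0.051, edgeR adjusted p = 0.000612) and 0.24 from untreated MSCs (adjusted p = 0.00332). Osmr had 7.56, 7.18 and 7.94 FPKM, a log2 difference of 0.38 from TGF-β1 alone (SE 0.073, adjusted p = 0.0114), and stayed below its untreated level by -0.58 on the log2 scale (adjusted p = 0.000114).

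The other receptor genes were not called against TGF-β1 alone. Il6st had 8.01, 7.89 and 9.43 FPKM and Il11ra1 had 2.05, 2.13 and 2.32, with 95% intervals of the log2 difference of -0.19 to 0.16 and -0.21 to 0.20. Both lay below the untreated libraries (log2 difference -0.59 and -0.81, edgeR adjusted p = 0.000196 and 5.84e-05). Il6ra had 1.16, 1.38 and 1.62 FPKM and Lifr had 0.227, 0.222 and 0.451, and both overlapped the TGF-β1 libraries.

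With M-MDSC supernatant a single member was called against TGF-β1 alone, where 4.78% of all genes tested were called and 2.83% were called higher. The study's rule called 0 members and 2.18% of all genes, and 5 members (Il6, Il11, Lif, Osmr and Socs3) and 16.7% of all genes had an unadjusted edgeR p under 0.05. It was Socs3, at 8.56, 8.56 and 8.86 FPKM, above all TGF-β1 libraries, with a log2 difference of 0.31 (SE 0.051, edgeR adjusted p = 0.00497). With only these 6 libraries in the fit, its adjusted p was 0.0524. The median log2 difference of the members was 0.20, and that of all genes was -0.013.

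Il6 had 2.21, 2.22 and 1.84 FPKM with M-MDSC supernatant, Lif 2.12, 2.22 and 1.89, and Il11 46.68, 42.39 and 38.64. Each of these 3 cytokine genes lay above all its TGF-β1 libraries, as 13.4% of all genes did, and none passed the test. The log2 differences were 0.55 for Il6, 0.31 for Lif and 0.29 for Il11, with edgeR adjusted p of 0.0683, 0.0662 and 0.113. DESeq2 called all 3 (adjusted p = 0.0138, 0.0234 and 0.0353), and limma called Il6 with a pseudocount of 1 or 0.1 (adjusted p = 0.0396 and 0.0473). By edgeR Lif was called when M-MDSC replicate 3 was left out (0.37, adjusted p = 0.0402) or when untreated replicate 2 was left out (0.32, adjusted p = 0.0401).

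Among the receptor genes, Il6st had 8.12, 8.03 and 8.34 FPKM with M-MDSC supernatant, Osmr 6.31, 6.43 and 7.26, Il11ra1 1.91, 1.79 and 1.97, Il6ra 2.06, 1.05 and 0.894, and Lifr 0.207, 0.443 and 0.177. None of the 4 tested was called against TGF-β1 alone. The Osmr libraries lay just above those with TGF-β1 alone (log2 difference 0.20, edgeR adjusted p = 0.186), and the others overlapped them.

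Against untreated MSCs, 5 of 9 members were called with M-MDSC supernatant (2 higher and 3 lower) and 7 of 9 with G-MDSC supernatant (4 higher and 3 lower). Of all genes tested, 35.2% were called with M-MDSC supernatant (16.4% higher and 18.9% lower) and 34.8% with G-MDSC supernatant (16.4% higher and 18.4% lower). The study's rule called 1 member (Il11) and 6.98% of all genes with M-MDSC supernatant, and 2 members (Il11 and Il6) and 6.8% with G-MDSC supernatant. Il11 and Il6 were higher and Il6st, Osmr and Il11ra1 lower with either supernatant, and Lif and Socs3 were called higher with that of G-MDSCs (log2 difference 0.90 and 0.24). With M-MDSC supernatant Lif was at 0.12 (edgeR adjusted p = 0.304) and Socs3 at 0.14 (adjusted p = 0.0583), and Socs3 was called there under median-ratio (RLE) scaling (adjusted p = 0.0458), by DESeq2 (0.0276) and without TGF-β1 replicate 1 (0.0441). Il6ra was at -0.64 and -0.59 with M-MDSC and G-MDSC supernatant (edgeR adjusted p = 0.145 and 0.179), and without M-MDSC replicate 1 it was called with that of M-MDSCs (-1.10, adjusted p = 0.00979). Clcf1 was at 0.23 and 0.27 and, without the filter, Lifr at -0.37 and -0.25, and neither was called. The Il11 difference was 3.53 with M-MDSC and 3.70 with G-MDSC supernatant, and that of Il6 was 0.97 and 1.301. These comparisons share the 3 untreated libraries, and those above share the 3 libraries with TGF-β1 alone.

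The 2 supernatants differed in Lif. Lif was the 1 member called in the direct comparison, in which 0.125% of all genes tested, 15 in number, were called and 0.025% were lower with M-MDSC supernatant. The study's rule called 0 members and 0.549% of all genes, and 3 members (Lif, Il6 and Osmr) and 6.33% of all genes had an unadjusted edgeR p under 0.05. The M-MDSC libraries lay below the G-MDSC ones, with a log2 difference of -0.78 (SE 0.082, 95% interval -0.96 to -0.60, edgeR adjusted p = 0.00324). The highest M-MDSC library had 2.22 FPKM and the lowest G-MDSC library 3.55. Of the 15 genes, Lif was one of 3 that were lower with M-MDSC supernatant, beside Psmd5, a chaperone of proteasome assembly, and Nfkbiz, a regulator of NF-kB target genes. The other 12 were higher and included Ifit1, Ifit3, Isg15 and Tgtp1, genes known to respond to interferon. This split depended on the M-MDSC libraries. Without replicate 1 it was 8 higher and 7 lower, without replicate 2 it was 8 and 8, and without replicate 3, 47 genes were called between the supernatants, 11 higher and 36 lower with that of M-MDSCs. DESeq2 on all libraries called 121, of which 77 were higher and 44 lower.

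No other member was called between the supernatants. The log2 difference (M-MDSC minus G-MDSC) was -0.33 for Il6, with a 95% interval of -0.65 to -0.0096, -0.17 for Il11 (-0.37 to 0.023), -0.18 for Osmr (-0.34 to -0.017) and -0.11 for Socs3 (-0.22 to 0.0047). The edgeR adjusted p-values of these 4 lay between 0.746 and 0.845. Il6, Il11ra1 and Socs3 had all 3 M-MDSC libraries below the G-MDSC ones, as 6.03% of all genes did, and the groups overlapped for Il11 and Osmr. The difference was -0.19 for Il11ra1 (-0.40 to 0.014), -0.044 for Il6st (-0.22 to 0.13) and -0.049 for Il6ra (-0.75 to 0.65), and without the filter it was -0.11 for Lifr. For Clcf1 the interval was -0.97 to 0.89, which leaves a difference of either sign.

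Genes of other organs moved with the supernatants. The summed FPKM of 6 liver genes (Alb, Apoa1, Ttr, Ahsg, Fgb and Cyp2e1) was 55.98 to 61.5 in the G-MDSC libraries, 0.527 and 0.503 in M-MDSC replicates 1 and 2 and 53.07 in M-MDSC replicate 3, and all 6 genes had 0 counts in every library without supernatant. The sum of 5 kidney genes (Kap, Umod, Slc34a1, Lrp2 and Slc12a1) was 41.24 to 55.08 in the G-MDSC libraries, 14.62, 11.02 and 75.81 in the M-MDSC ones and at most 0.0916 without supernatant. The part of these transcripts in the changes of Lif, Il6, Il11, Socs3 and Osmr was not tested. M-MDSC replicate 3 had Lif at 1.89, Il6 at 1.84 and Il11 at 38.64 FPKM, each the lowest of the M-MDSC libraries, and Osmr at 7.26 and Socs3 at 8.86 FPKM, each the highest of them. Without that library the Lif difference between the supernatants was -0.71 (edgeR adjusted p = 0.00625).

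Some genes of myeloid cells, the source of the supernatants, moved with them as well. The summed FPKM of 9 markers was 4.61 to 5.39 in untreated MSCs, 2.19 to 3.18 with TGF-β1, 4.15 to 6.65 with M-MDSC and 5.55 to 8.16 with G-MDSC supernatant. Lyz2, the lysozyme gene of macrophages and neutrophils, had at most 0.191 FPKM without supernatant, 0.651 to 2.29 with that of M-MDSCs and 1.56 to 2.11 with that of G-MDSCs. Against TGF-β1 alone it was called in both (log2 difference 4.60 and 4.87, edgeR adjusted p = 0.0262 and 0.0183). S100a9 had 0 counts in the 6 libraries without supernatant and in 2 of the G-MDSC libraries, 3.40 FPKM in the third and 0.258 to 0.980 in the M-MDSC ones. Ly6g was at 1.74 to 1.89 FPKM in untreated MSCs and at most 0.199 in every other library, so it adds to the untreated sum, and Cd68 and Csf1r were detected in all groups. The defining markers Ptprc, Itgam and Adgre1 were at or below 0.0927 FPKM in every library. The part of myeloid RNA in the values of the members was not tested.

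**Figure D3:**
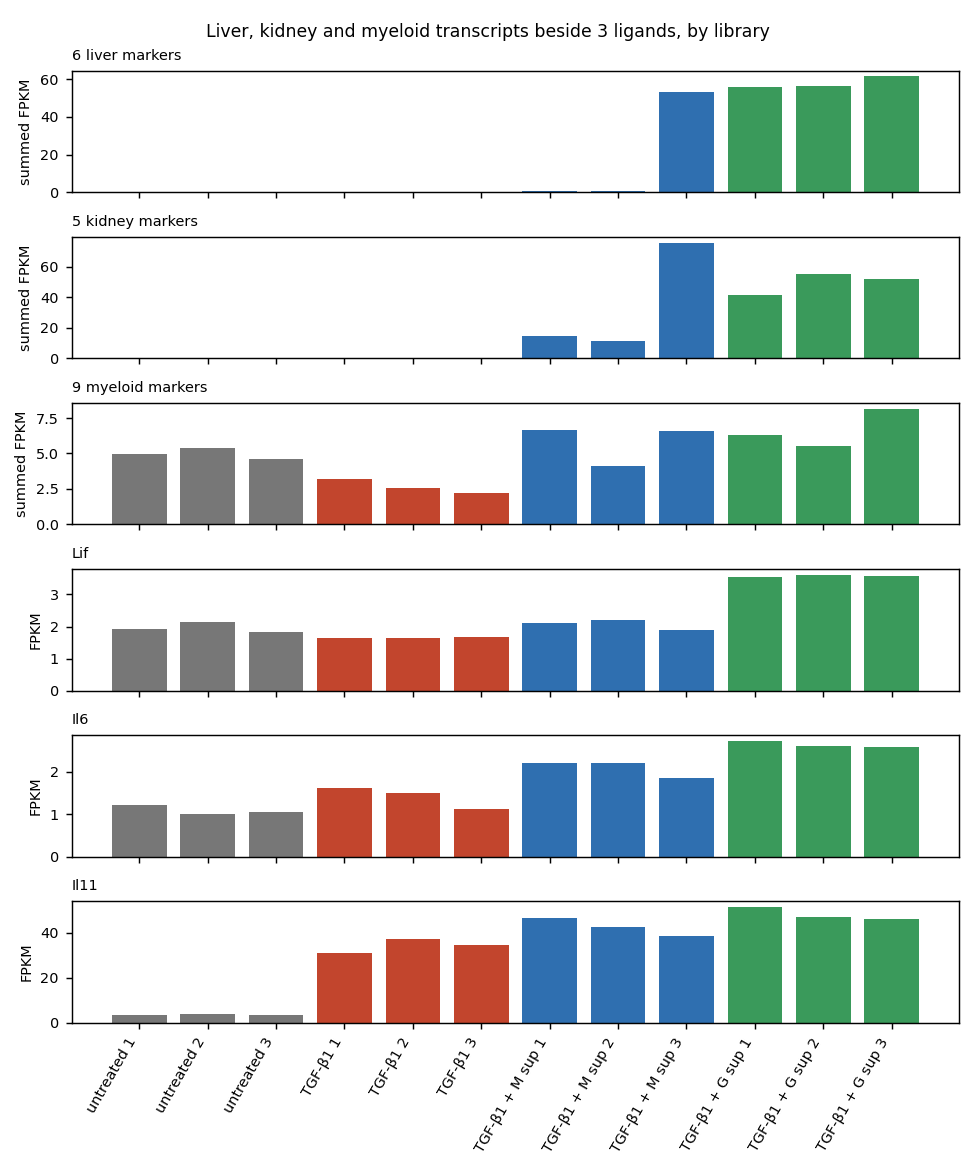
Summed FPKM of the 6 liver, 5 kidney and 9 myeloid markers and FPKM of Lif, Il6 and Il11 in each of the 12 libraries, each on its own linear axis from 0. The liver sum is 53.07 in M-MDSC replicate 3 and at least 55.98 in the G-MDSC libraries, and Lif is at most 2.22 FPKM in the M-MDSC and at least 3.55 in the G-MDSC libraries.

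The other genes of the pathway described here numbered 32, of which 20 passed the filter. With TGF-β1 alone 8 were called, 1 higher and 7 lower, against 34% of all genes tested (16.1% higher and 17.9% lower). Their median log2 difference was -0.14, and that of all genes was 0.00048. The AP-1 gene Junb rose by 1.52. Among the signal carriers, Stat3 (-0.60) and the kinase gene Jak1 (-0.36) fell. Of the 8 tested genes listed as common STAT3 targets, 1 (Junb) was higher, 5 were lower and 2 were not called. The lower targets were Cebpd (-2.40) and Bcl3 (-1.69), both regulators of transcription, the kinase gene Pim1 (-0.44), the IL-4 receptor gene Il4ra (-0.28) and the survival gene Mcl1 (-0.19).

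Stat3, which carries the signal of gp130, had 17.19, 15.01 and 16.92 FPKM in untreated MSCs, 10.59, 10.50 and 10.03 with TGF-β1, 12.28, 11.66 and 11.86 with M-MDSC supernatant, and 11.94, 12.45 and 13.05 with G-MDSC supernatant. Thus both supernatant groups lay between the TGF-β1 and the untreated libraries. The difference from TGF-β1 alone was called with G-MDSC supernatant (0.24, edgeR adjusted p = 0.0307) and not with M-MDSC supernatant (0.18, adjusted p = 0.118). DESeq2 called it with both (adjusted p = 0.00181 and 0.0395 in the same order), and Stat3 was not called between the supernatants.

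Each supernatant raised 2 of the 20 pathway genes above TGF-β1 alone by edgeR's test, and 0 were called lower. Of all genes tested, 4.78% were called with M-MDSC supernatant (2.83% higher and 1.95% lower) and 5.56% with G-MDSC supernatant (3.1% higher and 2.46% lower). At an unadjusted p under 0.05, M-MDSC supernatant had 5 of the pathway genes higher and 0 lower, against 7.57% and 9.15% of all genes, and 4 were higher and 0 lower with G-MDSC supernatant, against 7.91% and 9.25%. DESeq2 and limma also called 0 pathway genes lower, where DESeq2 called 361 and 442 of all 12016 genes lower with M-MDSC and G-MDSC supernatant and limma, with a pseudocount of 1, called 172 and 216. The higher genes were Pim1 (0.31) and Il4ra (0.42) with M-MDSC supernatant, and Stat3 and Il4ra (0.69) with G-MDSC supernatant. Pim1 with G-MDSC supernatant had a log2 difference of 0.24 and an edgeR adjusted p of 0.0501, and limma called it there with either pseudocount. DESeq2 called Pim1, Stat3 and Il4ra with both supernatants. Between the supernatants edgeR, limma and DESeq2 called 0 of the 20, with 1 (Il4ra) at an unadjusted p under 0.05. The ligand gene Osm had 0 counts in 11 of the 12 libraries and Il31 in all 12, and Il27, Ebi3, Cntfr and Il31ra did not exceed 0.2305 FPKM.

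**Figure D4:**
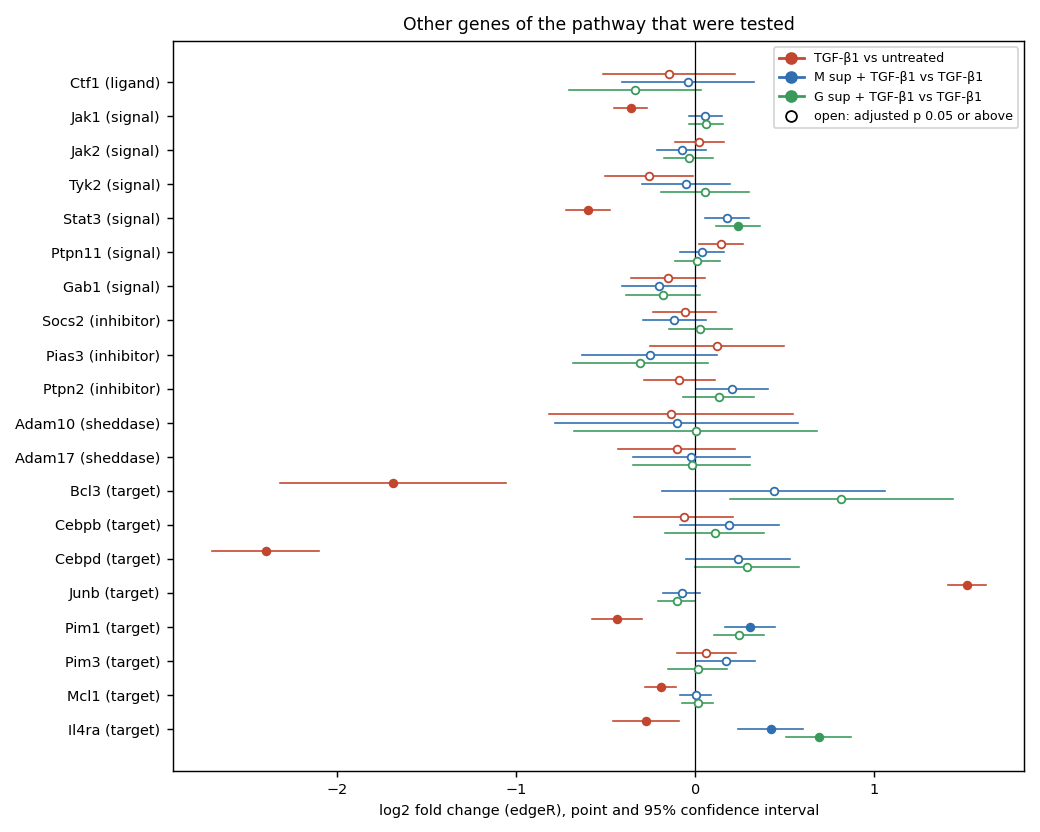
Log2 fold change of the 20 pathway genes tested (points) with the 95% confidence interval (lines) for TGF-β1 against untreated MSCs and for each supernatant with TGF-β1 against TGF-β1 alone, from edgeR. Filled points have an adjusted p under 0.05. With TGF-β1, Junb lies highest at 1.52 and Cebpd lowest at -2.40, and with the supernatants Il4ra lies at 0.42 (M-MDSC) and 0.69 (G-MDSC).

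The genes most like each member were found by the Pearson correlation of log2(FPKM + 1) over the 12 libraries, which the groups largely set. They are a description, and the points share libraries and groups. Most like Il11 were Acsbg1 (r = 0.997), Cd109 and Spsb1 (both 0.996), and most like Il6 were Ccl20 (0.960), F13a1 (0.958) and Abcc4 (0.953). Lif was most like Psmd5 (0.956), Ramp3 (0.936) and Slc11a2 (0.920), and Psmd5 had group means of 10.66, 10.10, 10.92 and 16.16 FPKM in untreated, TGF-β1, M-MDSC and G-MDSC libraries.

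The receptor genes had near matches whose mean FPKM was lower in all 3 treated groups. Il6st was most like Sema5a (r = 0.992), Thsd7a (0.991) and Dlg5 (0.989), Osmr like Serpine2 (0.991), Dtwd1 and Slc16a1 (both 0.986), and Il11ra1 like Sestd1, Klf5 and Abca7 (0.986 each). Socs3 was most like the interferon-inducible gene Ifi27 (0.976), which had mean FPKM of 68.4, 40.6, 80.5 and 93.3 in the groups in the same order, followed by Tiparp (0.955) and Rpl30-ps10 (0.937). The values were lower for Clcf1, with Ankrd1 and Gm3851 (both 0.882) and Ski (0.871), and for Il6ra, with Adcy6 and Heatr3 (both 0.880) and Gm37201 (0.870).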

How the data were processed

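The RNA of mouse bone marrow MSCs was sequenced in 12 libraries, 3 for each of 4 groups, and groups were taken from the treatment labels. Libraries were made from polyadenylated RNA with dUTP marking of the second strand. The submitters' processing notes name cutadapt 1.9, HISAT2 2.0.4, StringTie 1.3.4d, edgeR and DESeq2. The authors deposited 1 table on GRCm38 with raw counts and FPKM per gene and library, where an FPKM of 0.0001 stands for a count of 0. At the lowest counts FPKM did not always follow the counts. The gene Gm26115 had 0.0086 FPKM at 1 count in untreated replicate 3 and 0.191 at 2 counts in untreated replicate 2. The counting tool, and whether it used strand, are not given in the sources used here. The table's columns of the authors' own comparisons were not used.

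Counts were scaled by TMM (factors 0.978 to 1.03) and fitted in edgeR 4.0.16 (R 4.3.3) with 4 group means, and differences were tested two-sided by the quasi-likelihood F test. The genes tested were the 12016 of 55401 that reached an FPKM of 1 in 3 or more libraries, and Benjamini-Hochberg adjustment ran over all of them. Data for TGF-β1 against untreated MSCs were simulated once with and once without changes, for 12016 genes, from edgeR's own fitted spread. The changed genes were drawn from those above a count floor. In these data 174 of 200 genes changed 2-fold were recovered with 4 false calls, and 0 calls were made without changes. Smaller changes, as most calls of members are, were not simulated. As a mean over the genes tested, the variance within groups was 61.9 to 85.3 times that of counting. That mean does not describe each member. Lif with G-MDSC supernatant had 1457, 1383 and 1396 counts, and its FPKM values lay close together (3.55, 3.61 and 3.57). Low counts pile up at multiples of 4 (44.3% of counts from 1 to 12), and counts divided by 4 were one alternative. The others were the study's rule (fold over 2 either way with an unadjusted p under 0.05), RLE scaling, no filter, filterByExpr, DESeq2 1.42.0, limma 3.58.1 on log2(FPKM + 1) and log2(FPKM + 0.1), a fit of the compared groups alone, a replicate block and each library left out in turn.

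The 10 members, the pathway and marker lists and the motifs were chosen with earlier results of these data known, so no list is independent evidence. All 10 members are given in every comparison, with the pathway genes of a set list (some genes of the pathway and check lists are not reported here and are not in the counts) and the 3 genes most like each member tested over 12 libraries. Promoter windows of 250 bases came from RefSeq (GRCm38.p6), and no window of Clcf1 was used here. Tables were handled in Python 3.11.15 with pandas 2.3.3.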

Additional observations from a re-analysis of the deposited data

Results flagged for a closer look

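Lif was flagged because the 2 supernatants, each given with TGF-β1, acted differently on it in a test of the difference itself. The log2 difference between M-MDSC and G-MDSC supernatant was -0.78 (edgeR adjusted p = 0.00324), with mean FPKM of 2.08 ± 0.171 (SD, n = 3) and 3.58 ± 0.0338 (SD, n = 3). All 3 M-MDSC libraries lay below all 3 G-MDSC libraries. Over 21 of the 22 alternatives the difference stayed called, from -0.83 to -0.58, and the study's rule of a fold over 2 did not call it.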

How the results depend on the processing

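The changes of Il11, Il6st, Osmr and Il11ra1 with TGF-β1 and of Lif with G-MDSC supernatant kept their direction and stayed called under all alternatives, except that the study's rule of a fold over 2 did not call Il6st, Osmr or Il11ra1. That rule called 1 member (Il11) with TGF-β1 against untreated MSCs, 0 with M-MDSC and 1 with G-MDSC supernatant against TGF-β1, 0 between the supernatants, and 1 and 2 with M-MDSC and G-MDSC supernatant against untreated MSCs. With M-MDSC supernatant against TGF-β1, DESeq2 called 4 members, limma 2 (Socs3 and Il6) with either pseudocount and the fit of the compared groups alone 0, where they called 830, 539 (538 with a pseudocount of 0.1) and 351 of all 12016 genes against 574 by edgeR on all libraries. Leaving out 1 library at a time gave 1 to 2 members there (2 without untreated replicate 2 or M-MDSC replicate 3, where Lif was added), 4 to 6 for TGF-β1 against untreated MSCs, 5 to 6 for M-MDSC supernatant against untreated MSCs (6 also under RLE scaling and DESeq2, with Socs3 added) and 4 to 5 for G-MDSC supernatant against TGF-β1. The causes were not tested. Genes called over the whole table ranged from 8 (replicate block) to 121 (DESeq2) between the supernatants, from 262 to 830 and from 261 to 990 with M-MDSC and G-MDSC supernatant against TGF-β1, and from 810 to 4607 with TGF-β1 against untreated MSCs.

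Direction changed only for members that were not called. Il6ra with M-MDSC supernatant was -0.020 under limma with a pseudocount of 0.1. Il6st with G-MDSC supernatant was 0.0095 and 0.010 under limma with pseudocounts of 1 and 0.1. Il11ra1 with G-MDSC supernatant was 0.0048 under RLE scaling, 0.0021 without a filter, 0.0011 with filterByExpr, 0.0047 under DESeq2, 0.017 and 0.024 under limma, and 0.0073 with the compared groups alone. Leaving out 1 library, the log2 difference from TGF-β1 ranged with M-MDSC supernatant from -0.47 to 0.071 for Clcf1, from -0.084 to 0.010 for Il6st and from -0.43 to 0.25 for Il6ra. With G-MDSC supernatant it ranged from -0.47 to 0.096 for Clcf1, from -0.10 to 0.055 for Il6st, from -0.065 to 0.21 for Il6ra and from -0.056 to 0.072 for Il11ra1. Between the supernatants it ranged from -0.36 to 0.30 for Clcf1, from -0.092 to 0.044 for Il6st and from -0.51 to 0.17 for Il6ra.

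Libraries with the same replicate number did not deviate together on average (mean correlation of residuals -0.0038 over 18 pairs, 0.0020 over 36 pairs with different numbers). This mean cannot show whether libraries were paired in culture or preparation. The replicate block left the counts of members called at 6, 1, 5 and 1 for TGF-β1, M-MDSC and G-MDSC supernatant and the supernatants against each other, and it moved Il6ra with M-MDSC supernatant to -0.024.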
